A study of Mus musculus with 2 samples.

Results

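The immunoglobulin heavy chain isotype genes are the 8 constant region genes Ighm, Ighd, Ighg3, Ighg1, Ighg2b, Ighg2c, Ighe and Igha, chosen by gene symbol from the 32285 genes counted in each library. All 8 were found in both libraries, and they were described in 11805 and 11523 kept cells, meaning droplets with at least 500 detected genes, at most 15% mitochondrial UMIs and no doublet call. A UMI (unique molecular identifier) count is a number of RNA molecules caught from the 3′ end, so levels of different genes were compared per molecule and were not divided by gene length.

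The study took leukocytes carrying the surface protein CD45 from mouse aorta and read them as single cells on the 10x Genomics platform, to learn how a siRNA against the transcription factor IRF5, given on a carrier called ZnDPA, acts on macrophages of atherosclerotic lesions. One library, labelled treated, came from the ZnDPA@siIRF5 group and 1 library, labelled control, from a control group. The labels used here give neither the strain, genotype, diet, sex or age of the mice, nor how many animals were pooled, nor what the control mice received. With 1 library per group no difference between the groups has a replicate check: no test was made, and each interval below is a 95% interval of counting error only.

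Pooled over the kept cells, the targeted gene went against the label. Irf5 was counted at 86.5 UMIs per 1000000 UMIs counted (CPM) in the library labelled treated and at 49.5 in the control. In plasma cell-like cells the 2 values were 16.6 and 16.3 CPM, in B cell-like cells outside the germinal centre 58.5 and 53.6. Germinal centre B-like cells had 77.1 and 53.8 CPM and cells of other classes 98.6 and 65.7. The pooled values mix cell types in unlike shares: plasma cell-like cells were 3.40% and 10.8% of kept cells. The part of this mix was not tested. Each direction below is therefore one between libraries, named as they are labelled. Ptprc, which encodes CD45, had a UMI in 87.1% and 86.8% of kept cells, and 97 and 117 kept cells formed a fibroblast-like cluster.

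A B cell first makes IgM and IgD from the same primary transcript, which runs through Ighm and Ighd and is spliced to one or the other. On activation, class switching cuts the DNA ahead of the constant genes and joins the rearranged variable region to a gene further down the locus, so that the cell then makes IgG, IgE or IgA with the same variable region. A plasma cell, the antibody-secreting end stage, uses the secreted form of its heavy chain, while a resting B cell uses a membrane form as its receptor. In atherosclerosis, plasma cells and B cells are known from the outer wall of the artery, and IgM and IgG antibodies are known to bind modified lipoproteins.

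In the GRCm38 (mm10) annotation the 8 genes lie on the minus strand of chromosome 12, in the order in which switching can reach them. Ighm (ENSMUSG00000076617) spans 113418558 to 113422730, and Ighd (ENSMUSG00000104213) spans 113406604 to 113416324. The IgG genes follow: Ighg3 (ENSMUSG00000076615) at 113356224 to 113361232, Ighg1 (ENSMUSG00000076614) at 113325240 to 113330523, Ighg2b (ENSMUSG00000076613) at 113302965 to 113307933 and Ighg2c (ENSMUSG00000076612) at 113285325 to 113288932. Ighe (ENSMUSG00000087642) spans 113269260 to 113273248, and Igha (ENSMUSG00000095079), the last, spans 113254830 to 113260236. The near end of Igha lies 158322 bases from that of Ighm.

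The last 90 coding bases of the secreted transcript are shown for the 6 genes that plasma cells used, since a 3′ library counts molecules from this end and must tell these genes apart there. They come from the reference annotation and not from the reads. Capitals mark the coding bases, stop codon included, that the secreted form has and the membrane form lacks.
Ighm: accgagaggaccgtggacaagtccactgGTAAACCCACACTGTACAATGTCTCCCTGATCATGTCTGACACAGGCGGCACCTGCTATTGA
Igha: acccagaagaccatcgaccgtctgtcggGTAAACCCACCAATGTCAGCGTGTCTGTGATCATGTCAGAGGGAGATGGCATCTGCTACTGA
Ighg3: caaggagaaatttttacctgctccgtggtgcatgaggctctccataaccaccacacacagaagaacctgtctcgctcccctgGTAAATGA
Ighg1: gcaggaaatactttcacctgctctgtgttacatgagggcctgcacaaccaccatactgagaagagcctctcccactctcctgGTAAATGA
Ighg2b: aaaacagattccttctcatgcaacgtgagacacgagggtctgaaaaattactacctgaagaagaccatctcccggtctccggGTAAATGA
Ighg2c: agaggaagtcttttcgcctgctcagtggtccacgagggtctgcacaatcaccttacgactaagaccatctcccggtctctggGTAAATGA
Ighm and Igha share a long secreted tail of 62 coding bases, in which 43 positions are alike. It encodes the tailpiece through which the J chain links IgM and IgA into polymers. All 4 IgG genes end in the same 8 bases. In 7 of the 8 genes the secreted-only part begins with GT, the letters of a splice donor, and is read on from an exon that the membrane form also uses. The exception was Ighd, whose secreted end is an exon of its own.

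Over the last 300 coding bases, compared without gaps, the IgG genes were 66.3% to 76.0% identical, with Ighg2b and Ighg2c the closest pair. Those 2 genes also share an exact match of 44 bases in the last 400 bases of the transcript, and no pair of the 8 genes shares a window of 60 bases there. How the counting software split reads between Ighg2b and Ighg2c was not tested.

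The barcodes numbered 13155 in the library labelled treated, against 12516 in the control, with 77856529 and 88567528 UMIs and medians of 4449 and 4617 per barcode. After filters and the removal of 661 and 515 doublet calls, 11805 and 11523 cells were kept, in 27 clusters built without immunoglobulin or J chain genes and named from fixed marker lists. B cell-like cells outside the germinal centre numbered 875 and 1507, germinal centre B-like cells 67 and 350, and plasma cell-like cells 401 and 1242. The plasma cell-like cells were cluster 16, led by Slpi, Oosp1 and Derl3, and the cycling cluster 23, led by Rrm2 and Mzb1, with 26 and 197 cells. In cluster 23 only Mzb1 of the plasma cell list stood among the leading 10 genes, so that values are also given without it. All 13 plasma cell markers were detected in both libraries, with a summed level of 8806 and 8809 CPM. The libraries share 45 barcodes, of which 37 were kept in both and 0 were plasma cell-like in both.

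Plasma cell-like cells held 91.3% and 89.5% of all heavy chain UMIs, which numbered 961922 in the library labelled treated, against 3148376 in the control. They made up 3.40% of kept cells where the label is treated and 10.8% in the control. Immunoglobulin genes took 5.40% and 15.3% of all UMIs of these libraries.

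Each plasma cell-like cell was given the isotype that supplied at least 70% of its heavy chain UMIs, provided it had at least 20. Most cells used 1 gene: it supplied a median of 99.9% and 99.6% of a cell's heavy chain UMIs, and at least 90% in 387 and 1195 cells. At least 2 isotypes at 20% or more each were found in 5 and 21 cells. These cells had a median doublet score of 0.0796 and 0.0493, against 0.0613 and 0.0421 in the rest. In all, 392 of 401 and 1215 of 1242 cells were called.

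IgM and IgA were more frequent, and IgG less frequent, among the plasma cell-like cells of the library labelled treated. IgM cells were 217 of 392 (55.4%, interval 50.3 to 60.3) against 409 of 1215 (33.7%, 31.0 to 36.4), a difference of 21.7 points (16.1 to 27.2). IgA, the antibody of mucosal surfaces, was called in 48 cells (12.2%) against 55 (4.53%), a difference of 7.72 points (4.55 to 11.5). The IgG genes together were called in 127 cells (32.4%) against 750 (61.7%), a difference of -29.3 points (-34.5 to -23.8).

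Within IgG the difference lay mostly in IgG2c and IgG2b, the classes that bind activating Fc receptors strongly. Ighg2c was called in 57 cells (14.5%) against 371 (30.5%), and Ighg2b in 42 (10.7%) against 248 (20.4%). The intervals of these differences were -20.1 to -11.4 points for Ighg2c and -13.3 to -5.62 points for Ighg2b. IgG3, typical of responses to carbohydrates, was rare in both libraries, with 5 cells (1.28%) against 44 (3.62%). Ighg1, the IgG that interleukin 4 favours, was called in 23 cells (5.87%) against 87 (7.16%), and the interval of its difference, -3.79 to 1.79 points, includes 0.

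IgD and IgE were rare among the called plasma cells. Ighd was called in 0 cells of either library, which allows shares of up to 0.765% and 0.247%. Ighe was called in 0 of 392 and in 1 of 1215 cells. That control cell carried 1609 Ighe UMIs among its 1623 heavy chain UMIs and had a doublet score of 0.0325. A further control barcode, with 1275 Ighe UMIs, was among the doublet calls and was not kept.

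**Figure D1:**
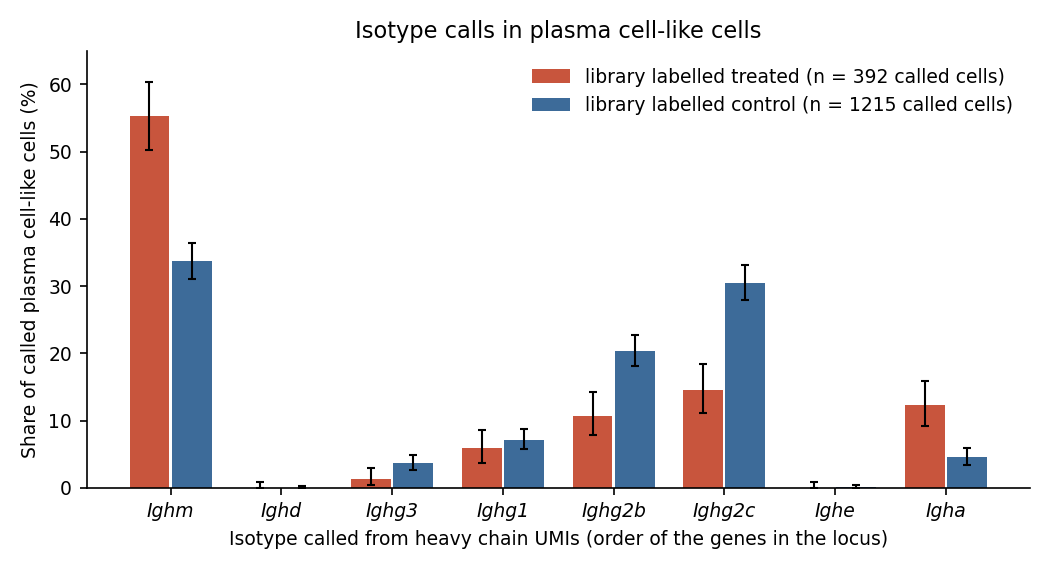
Share of called plasma cell-like cells (vertical axis, percent) by isotype in the order of the genes in the locus, for the 392 called cells of the library labelled treated and the 1215 of the control; bars are shares and error bars 95% Clopper-Pearson intervals of counting error. IgM stands at 55.4% against 33.7% and IgA at 12.2% against 4.53%, while IgG2b and IgG2c are lower in the library labelled treated.

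Set against all kept cells, the isotypes differed in how far the 2 libraries lay apart. IgG plasma cells were 1.08% (0.898 to 1.28) of kept cells in the library labelled treated, against 6.51% (6.07 to 6.97) in the control, 6.05 times as many. IgM plasma cells were 1.84% and 3.55%, 1.93 times as many in the control. IgA plasma cells were 0.407% (0.300 to 0.539) and 0.477% (0.360 to 0.621), and the interval of their difference, -0.245 to 0.101 points, includes 0. A share of kept cells depends on how many cells of other types were captured, and that part of the difference cannot be told apart from a difference in plasma cells per aorta.

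Cycling plasma cells were fewer in the library labelled treated, and leaving them out changed none of these directions. Among the 366 and 1023 called non-cycling cells, IgM made up 56.3% and 33.6%, IgA 11.2% and 4.30%, and IgG 32.5% and 62.0%. Among the 26 and 192 called cycling cells, IgG was again less frequent, at 30.8% against 60.4%, and IgA more frequent, at 26.9% against 5.73%. For IgM the cycling cells gave no clear difference, with 42.3% against 33.9% and an interval of -9.69 to 28.2 points. Cycling cells were found in every class with over 5 cells: in the control they made up 15.9% of IgM, 9.27% of IgG2b, 19.1% of IgG2c and 23.0% of IgG1 cells, and 11 of 55 IgA cells.

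In the summed UMIs a gene was counted as measured if it reached at least 50 UMIs and 20 CPM in one library, and as higher or lower past 1.5-fold, a rule of size with no test behind it. In plasma cell-like cells 7 of the 8 genes were measured. Of these 2 were higher in the library labelled treated, where 5.78% of the 3930 measured genes were, and 5 were lower, where 2.47% of all were.

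Ighm, counted 473701 times in the library labelled treated, against 883238 times in the control, stood at 60482 and 37304 CPM, a log2 ratio of 0.70 (0.69 to 0.70). When cycling and non-cycling cells were given equal weights in both libraries, its ratio was 0.55, which is under the 1.5-fold rule. Igha stood at 15540 and 5991 CPM, with a log2 ratio of 1.38 (1.36 to 1.39), the highest of the 8.

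The 4 IgG genes were all lower in the library labelled treated. Ighg2c had 16384 and 33594 CPM (log2 ratio -1.04), and Ighg2b had 12725 and 29225 CPM (-1.20). Ighg1 had 5516 and 9115 CPM (-0.72), and Ighg3 had 1466 and 3647 CPM (-1.31). Among these, Ighg3 in the library labelled treated rested on few cells, since 39.4% of its 11484 UMIs came from 1 cell.

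Ighe had 69 UMIs against 1691, a log2 ratio of -3.02, but 67 of the 69 and 1609 of the 1691 came from 1 cell each, so that its ratio compares 2 cells. Ighd, with 13 and 53 UMIs, was not measured. In the non-cycling cells alone 2 genes were higher (10.9% of all measured were) and 5 lower (1.29%), with Ighm at 0.61, Igha at 1.20 and Ighg2b at -1.41. The median of all measured genes lay at 0.23 there, and at 0.02 when UMIs outside immunoglobulin genes were the scale. On that scale Ighm of the non-cycling cells stood at 0.39, within 1.5-fold, which left 1 gene higher and 5 lower. The share of all measured genes past 1.5-fold on that scale is not given here. In the 26 and 197 cycling cells 2 genes were higher (7.9% of all measured were) and 2 lower (6.64%): Igha stood at 2.38 and Ighg2c at -3.20, while Ighm stood at -0.45 and Ighg2b at 0.13. Ighe was the other higher gene there, from the single cell of the library labelled treated, and Ighg3 the other lower one. In that library 1 cycling cell held 5975 of the 6186 Ighg2b UMIs, and 1 held 40.8% of the Igha UMIs.

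The total of the 8 genes was close in the 2 libraries, at 112124 and 118949 CPM and a log2 ratio of -0.09.

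**Figure D2:**
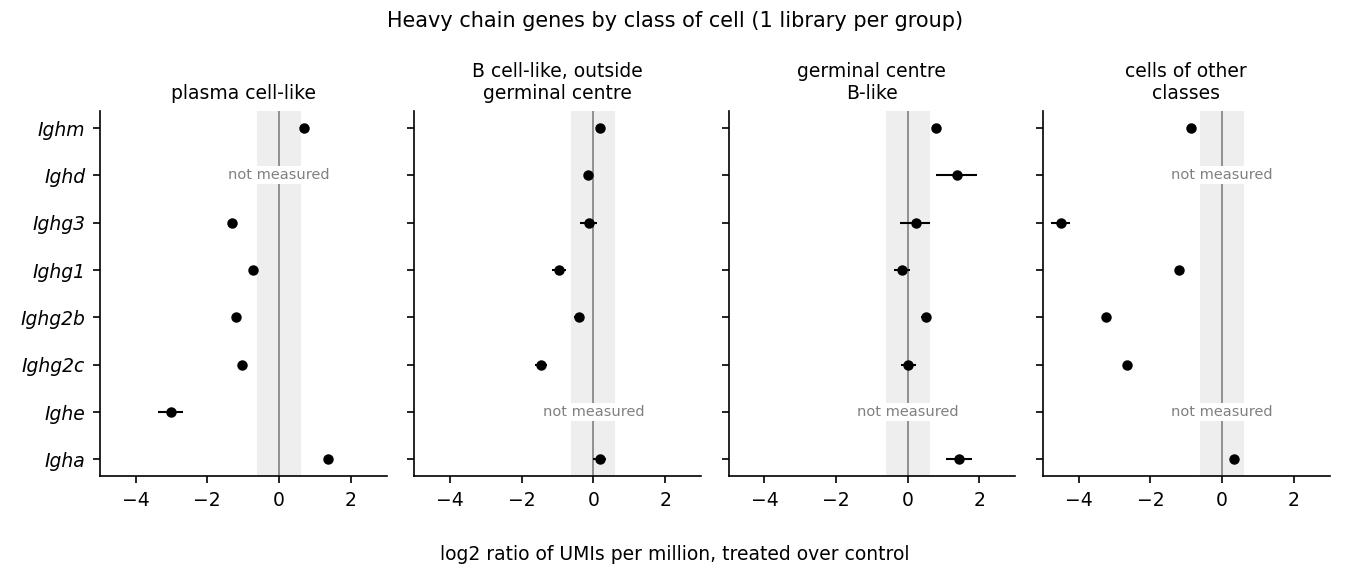
Log2 ratio of CPM, treated over control (horizontal axis), for each heavy chain gene (vertical axis) in 4 groups of cells, 1 library per group; points are ratios, bars 95% intervals of counting error, and the grey band marks ratios within 1.5-fold. In plasma cell-like cells Ighm and Igha lie right of the band and the IgG genes and Ighe left of it, while in cells of other classes 5 of the 6 measured genes lie left of it.

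Per cell, the median of the own heavy chain gene lay between 1509 and 2717.5 UMIs in the 6 main isotypes. The median IgM plasma cell carried 2044 Ighm UMIs where the label is treated and 2022 in the control. The medians of the own heavy chain gene were 2070 and 1892 in IgG2c cells, 1992 and 2391.5 in IgG2b cells and 2039 and 1836 in IgG3 cells. The widest gaps between the libraries were in IgG1 cells, with 1509 and 2315 UMIs over 23 and 87 cells, and in IgA cells, with 2717.5 and 2230 over 48 and 55 cells. The middle 50% of IgG1 cells ran from 722.5 to 3164 and from 1241 to 3136 UMIs, so the libraries overlapped.

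The J chain, which links IgM and IgA into polymers, was highest in IgA cells of both libraries and was present in IgG cells too. IgA cells had medians of 1006.5 and 959 Jchain UMIs, against 447 and 385 in IgM cells. IgG2c cells had 356 and 312, IgG3 cells 287 and 213.5, IgG1 cells 234 and 257, and IgG2b cells 168 and 263.5. Scaled to UMIs per 1000000 outside immunoglobulin genes, Jchain in IgA cells exceeded that in the other called cells by a log2 ratio of 1.04 and 1.26. In IgG2b cells it was lower than in the others, at -0.95 and -0.23.

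Cells with under 20 Jchain UMIs were 14 of 217 (6.45%) and 41 of 409 (10.0%) IgM cells. Their median Ighm count was 503 and 700 UMIs, well below that of all IgM cells, and 6 of the 14 and 15 of the 41 were cycling. Summed over plasma cell-like cells, Jchain stood at 27109 and 21364 CPM, a log2 ratio of 0.34 that stays within 1.5-fold.

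**Figure D3:**
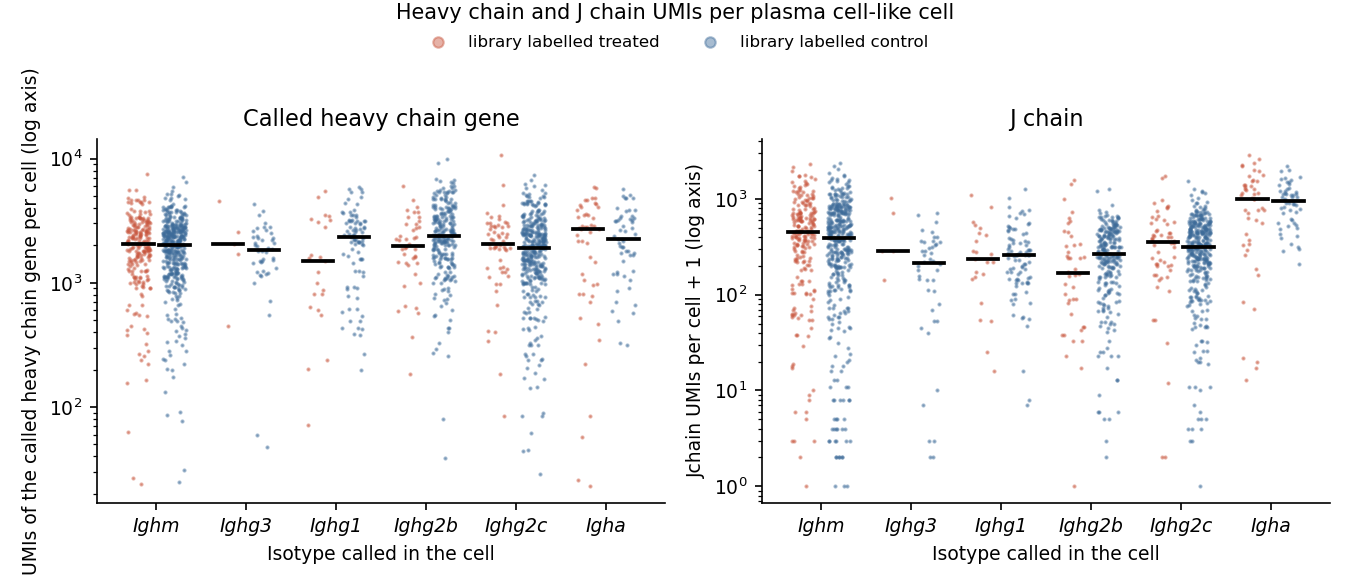
UMIs of the called heavy chain gene (left) and Jchain UMIs plus 1 (right) in each called plasma cell-like cell, on log axes, by isotype and library; black lines are medians. Own heavy chain medians lie between 1509 and 2717.5 for every isotype shown, and the Jchain medians of IgA cells, 1006.5 and 959, lie above those of the other isotypes.

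Light chains accompanied the heavy chains in similar ratios. Light chain UMIs (Igkc, Iglc1, Iglc2 and Iglc3) were 2.89 to 3.70 times the heavy chain UMIs in the 6 main isotypes of the control, and 3.12 to 4.29 times in the library labelled treated. Lambda light chain was the main light chain in 10 of 44 IgG3 cells of the control (22.7%, 11.5 to 37.8), where no other isotype passed 7.28%. The library labelled treated had 0 lambda cells among its 5 IgG3 cells.

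Other genes were compared between cells of different isotype within each library. For each isotype with at least 30 called cells in each library, genes at least 2-fold apart from the other called plasma cells in both libraries were listed, so that the rule itself sets a shared direction. Levels here are UMIs per 1000000 outside immunoglobulin genes. The 4 isotype comparisons share cells, since the cells of one isotype are part of the reference for the next, and each rests on cells of 2 libraries with no replicate.

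IgA cells had 15 genes higher (0.23% of 6525 measured) and 68 lower (1.04%). The chemokine receptor Ccr10, which guides IgA plasma cells to mucosal surfaces, stood at 230 against 11.5 in the library labelled treated and at 191 against 7.43 in the control. These are log2 ratios of 4.32 and 4.69. Other genes higher in IgA cells were Atp1b1, a sodium pump subunit (2.36 and 1.99), the transcription factor Runx2 (1.64 and 2.29), Glipr1 (1.67 and 1.71) and Osbpl3 (1.51 and 1.69). In non-cycling cells alone Osbpl3 stood at 1.92 and 0.90, under 2-fold in the control. Cycling cells were 7 of 48 and 11 of 55 IgA cells, and the 10 cycling markers summed to 1083 against 596 in the library labelled treated and 1962 against 1345 in the control. Their part was not tested.

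Of the homing list of 17 receptors, integrins and their regulators, Ccr10, Itgb7 and Cd28 were at least 2-fold higher in IgA cells of both libraries, and Cxcr4 and Cxcr3 at least 2-fold lower. Itgb7, the beta chain of the gut homing integrin, was higher in IgA cells by 1.15 and 1.81, while its partner Itga4, at 0.63 and 0.50, did not reach 2-fold. Cd28, a costimulatory receptor that plasma cells keep, was higher by 1.24 and 1.18. Cxcr4, the bone marrow homing receptor, was lower by a log2 ratio of -1.24 and -1.36. Cxcr3 stood at -1.40 and -1.72, where the interval in the library labelled treated, -3.72 to 0.23, includes 0. It rested on 3 and 9 UMIs in IgA cells. In non-cycling cells alone Cxcr3 stood at -1.23 and -0.69, under 2-fold in the control, and both intervals include 0.

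Lower in IgA cells were Bank1, a B cell adaptor, with 0 UMIs against 145 in the library labelled treated and 1 against 647 in the control. At a floor of 3 UMIs the ratio in the library labelled treated is at most -2.85. Pld4 (-2.27 and -2.48), Ubash3b (-2.14 and -2.57), Ncald (-2.70 and -2.34) and Wipf3 (-4.50 and -2.62) were lower too, the last 2 on 1 or 2 UMIs in IgA cells. IgM cells, part of the reference, held 1561 of its 1769 and 1751 of its 2190 Ubash3b UMIs. For Wipf3 they held 136 of 151 and 197 of 238. A comparison with the other switched cells alone was not made.

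IgM cells had 23 genes higher (0.439% of 5234) and 16 lower (0.306%). Ubash3b, a phosphatase that dampens receptor signals, was the most abundant of the higher genes, at 831 against 148 in the library labelled treated and 486 against 64.0 in the control. The other genes named for IgM were Myo1d, an unconventional myosin (4.02 and 2.74), Rims2 (3.27 and 4.69), Wipf3 (3.03 and 3.19) and Zcwpw1 (2.04 and 2.20). Markers of other cell types differed as well: the 5 erythroid markers summed to 585 against 218 in the library labelled treated and 1505 against 2.38 in the control, and the 12 neutrophil markers to 1388 against 1645 and 200.1 against 819. Their part was not tested.

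Slpi, a secreted inhibitor of leukocyte proteases, was among the genes lower in IgM cells. It reached 4564 against 36684 in the library labelled treated and 6741 against 55592 in the control, log2 ratios of -3.01 and -3.04. The surrogate light chain family member Vpreb3 was lower by -3.63 and -4.14, the surface protein gene Ly6c2 by -1.97 and -2.41, Ccr10 by -3.19 and -2.93, and Sgpp2 by -2.83 and -1.92. IgA cells, part of the reference, held 110 of its 132 Ccr10 UMIs in the library labelled treated and 101 of 166 in the control. A comparison without the IgA cells was not made.

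IgG2c cells had 1 gene higher, Slpi (0.0156% of 6398), and 28 lower (0.438%). Slpi stood at 52852 against 13100 in the library labelled treated and at 64612 against 26717 in the control, log2 ratios of 2.01 and 1.27. The reference includes the IgM cells, in which Slpi stood at 4564 and 6741. A comparison with the other switched cells alone was not made. Lower were genes already named as higher in IgM cells, Wipf3 (-3.46 and -3.36), Myo1d (-3.89 and -2.41), Rims2 (-2.22 and -3.46) and Ubash3b (-1.99 and -3.13), with Il5ra, the receptor of interleukin 5 (-3.36 and -2.20).

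IgG2b cells had 10 genes higher (0.151% of 6621) and 46 lower (0.695%). Among the higher genes named by the rule were the macrophage complement genes C1qa (2.15 and 1.79) and C1qc (1.73 and 1.37) and the neutrophil gene S100a8 (1.47 and 1.35). Markers of those cell types moved with them: the 11 macrophage markers summed to 873 against 285 in the library labelled treated and 219 against 93.0 in the control, and the 12 neutrophil markers to 3123 against 1322 and 1185 against 492. Their part in the result was not tested. Ly6c2 (1.42 and 1.31), which plasma cells express, and Nupr1 (1.34 and 1.34) completed the list. In the non-cycling cells of the control both stood at 0.98, just under 2-fold.

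The genes lower in IgG2b cells included the replication genes Pclaf (-4.45 and -1.95), Mcm5 (-2.46 and -1.62) and Ccne1 (-2.29 and -1.97). The share of cycling cells moved with them, at 2.38% and 9.27% of IgG2b cells. In non-cycling cells alone, Mcm5 stood at -0.90 and 0.18, Pclaf at -1.81 and -0.82 and Ccne1 at -1.52 and -0.35. Myo1d, not a cell cycle gene, was lower also without the cycling cells (-3.80 and -2.04). IgM cells, part of the reference, held 321 of its 337 Myo1d UMIs in the library labelled treated and 353 of 430 in the control. A comparison with the other switched cells alone was not made. Naaa stood at -1.63 and -2.44, on 2 UMIs in IgG2b cells of each library, and its interval in the library labelled treated, -4.72 to 0.29, includes 0.

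**Figure D4:**
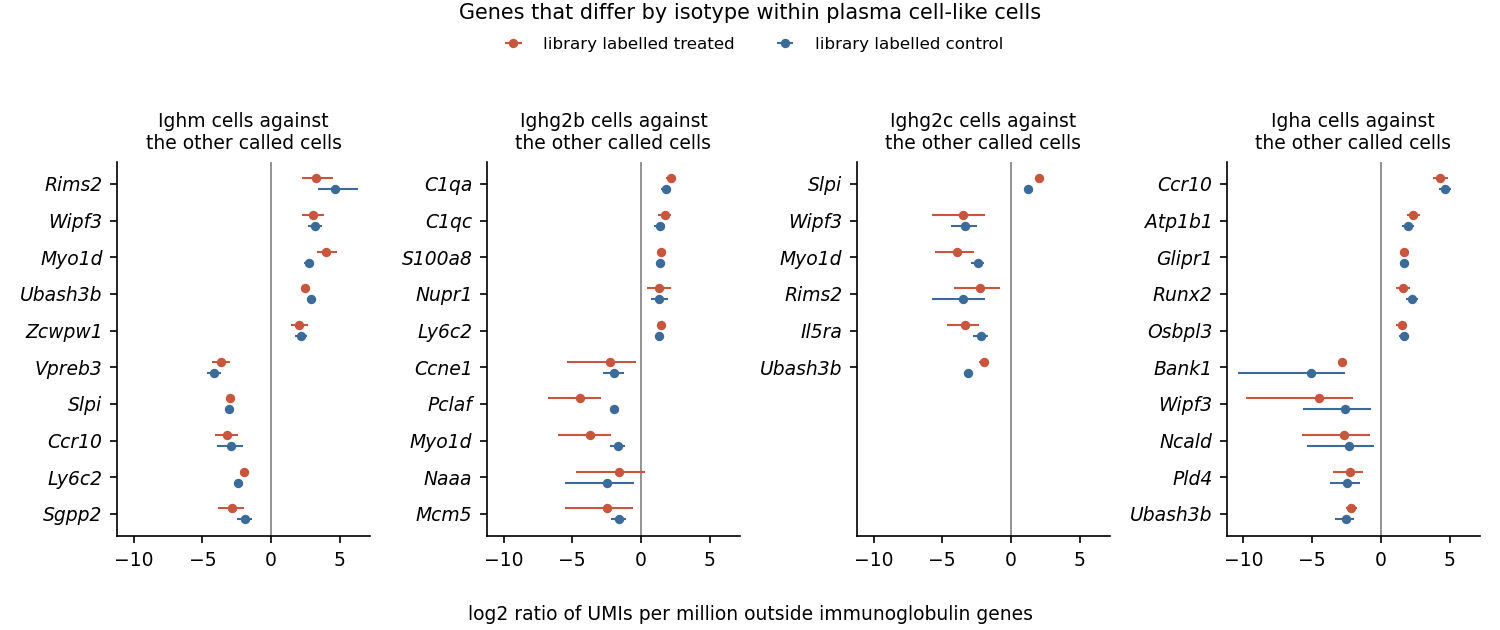
Log2 ratio (horizontal axis) of UMIs per 1000000 outside immunoglobulin genes in cells of one isotype over the other called plasma cells, for the genes named for IgM, IgG2b, IgG2c and IgA (vertical axis); points are the 2 libraries and bars 95% intervals of counting error. The rule that chose the genes puts both libraries on the same side of 0. Ccr10 in IgA cells stands at 4.32 and 4.69, and Bank1 of the library labelled treated, at 0 UMIs, is drawn at its bound without a bar.

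Genes around the heavy chains were read from 7 lists. In plasma cell-like cells 5.78% of all 3930 measured genes were at least 1.5-fold higher in the library labelled treated, and 2.47% were lower. Each list held at most 11 measured genes, so the counts below only describe its members. Of the light chain and J chain list, 5 of 5 genes were measured with 0 higher and 0 lower: Iglc1 0.48, Iglc2 -0.43, Jchain 0.34 and Igkc -0.05 on the log2 scale. The list's median was 0.04, against 0.0046 over all 3930 measured genes.

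The receptor list had 8 of 14 genes measured and 0 past 1.5-fold. Its largest ratios were those of the kinase Lyn (0.58), the adaptor Blnk (-0.38), the kinase Syk (-0.30) and the signal chain Cd79b (-0.29). Of the 22 genes of class switching and hypermutation only 5 were measured, with 0 past 1.5-fold, from the histone variant H2afx (-0.47) to Supt5 (0.35), Xrcc4 (-0.23) and Exosc3 (0.10).

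Of the cytokine and sensor signals that direct switching, 8 of 17 were measured and 0 were past 1.5-fold. Ifngr1, a chain of the interferon gamma receptor, stood at 0.58, the survival factor receptor Tnfrsf13c at -0.31 and the TGF-beta signal protein Smad3 at -0.28. Heavy chain RNA processing had 8 of 10 measured and 0 past 1.5-fold. Its members included Eaf2 (-0.57), Pabpc1 (0.26), Hnrnpl (-0.26), Hnrnpf (-0.24) and Ell2, the elongation factor that favours the secreted form (-0.12).

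The plasma cell regulators had 11 of 14 measured, with 1 higher and 0 lower. Tnfrsf17, the receptor BCMA on which plasma cells depend, was the one higher, at 76.1 against 50.05 CPM (0.60, interval 0.46 to 0.75). Creb3l2 (-0.43), Prdm1 (-0.38) and Ebf1 (-0.38) stayed within 1.5-fold. Among homing receptors 9 of 17 were measured, with 1 higher and 1 lower. Klf2, a transcription factor of cell trafficking, was higher, at 92.4 against 52.9 CPM (0.81), and Cxcr3, a receptor of chemokines made in inflamed tissue, was lower, at 7.28 against 24.9 CPM (-1.77). Itgb7 (0.47) and Cd28 (-0.45) stayed within 1.5-fold.

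Other cell types and the cell cycle moved between the libraries in the same cells. In plasma cell-like cells the macrophage markers summed to 173 and 53.7 CPM, the neutrophil markers to 718 and 281 CPM and the cycling markers to 312 and 632 CPM. Their part in the differences above was not tested.

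B cell-like cells outside the germinal centre used Ighm and Ighd in the main. Ighm stood at 2006 and 1770 CPM (log2 ratio 0.18) and had a UMI in 85.9% and 88.9% of these cells. Ighd, the marker of mature unswitched B cells, stood at 205 and 229 CPM (-0.16). It had a UMI in 44.3% and 46.8% of B cell-like cells, against 0.918% and 1.13% of cells of other classes, with median depths of 4798 and 4132 UMIs against 4330 and 4154.5. Nearly all Ighd cells also held Ighm: 5 of 875 and 12 of 1507 cells had Ighd alone.

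The background for the switched genes in these cells was free RNA, that is, molecules from other cells that enter every droplet. It was read from cells of other classes with under 20 heavy chain UMIs, as UMIs per 1000000 outside immunoglobulin genes. Against it, Ighd in B cell-like cells stood 86.7 and 86.9 times higher and Ighm 11.5 and 7.91 times. Ighg2c stood only 2.10 and 1.18 times higher, Ighg1 3.28 and 1.79 times, and Ighg2b 8.69 and 1.71 times, so in the control most of what was counted for these 3 genes lay near the free level.

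Of 7 measured genes 2 were lower in the library labelled treated, where 1.47% of 6134 genes were, and 0 were higher, where 1.32% were. The lower ones were Ighg2c, at 69.8 and 192 CPM (-1.46), and Ighg1, at 62.7 and 122 CPM (-0.96). The free level of both genes was lower in the library labelled treated as well, by log2 ratios of -2.29 and -1.84, and its part in the difference was not tested. Ighg2b (-0.41), Ighg3 (-0.13) and Igha (0.18) stayed within 1.5-fold, and the total of the 8 genes was 2655 and 2676 CPM. In the library labelled treated 1 cell held 109 of the 236 Ighg3 UMIs, and 1 cell held 156 of the 422 Igha UMIs.

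B cell-like cells called by isotype were mostly unswitched. With at least 3 heavy chain UMIs and 70% from Ighm and Ighd together or from one switched gene, 747 of 875 and 915 of 1507 cells were called. Unswitched cells were 657 (88.0%) and 846 (92.5%) of these, a difference of -4.51 points (-7.47 to -1.65). With at least 10 UMIs the shares were 92.4% and 94.96%, and the interval of the difference, -5.80 to 0.39 points, includes 0. IgG2b was the most frequent switched call, at 48 cells (6.43%) and 33 (3.61%), followed by IgG1 with 25 and 17. IgG2c was called in 6 and 5 cells and IgA in 8 and 11.

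Fewer B cell-like cells could be called in the control, 60.7% against 85.4%. Free RNA was higher there, and its part in the difference was not tested.

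Germinal centre B-like cells, the B cells that divide, mutate and switch, numbered 67 and 350. All 12 germinal centre markers were detected in both libraries. Of 7 measured heavy chain genes 3 were higher in the library labelled treated, where 9.41% of 6502 genes were, and 0 were lower, where 7.18% were.

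Ighm stood at 2331 and 1351 CPM (0.79), where 1 control cell with 1406 UMIs held 18.6% of the control's count. Ighd stood at 40.6 and 15.8 CPM (1.37), from 39 and 88 UMIs. Igha stood at 96.9 and 36.01 CPM (1.43). Its control level was 1.01 times the free level, and 44 of the 93 UMIs of the library labelled treated lay in 1 cell. With the doublet calls kept, which raised the class to 127 and 463 cells, 1 gene was higher and 2 were lower, and Igha stood at 0.23 and Ighm at 0.57. The share of all measured genes past 1.5-fold in that run is not given here, so these counts are not set against it.

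The 4 IgG genes stayed within 1.5-fold. Ighg2b stood at 530 and 370 CPM (0.52), Ighg1 at 193 and 215 CPM (-0.16), Ighg2c at 234 and 231 CPM (0.02) and Ighg3 at 61.5 and 52.9 CPM (0.22). Much of the Ighg2c and Ighg3 count of the library labelled treated came from 1 cell each, with 75.6% and 71.2% of the UMIs. The control lay nearer to its free level: Ighg2c stood at 7.09 and 1.42 times that level and Ighg2b at 26.7 and 2.75 times. Ighg1 stood at 10.1 and 3.14 times and Ighg3 at 28.0 and 2.79 times. The part of free RNA in these ratios was not tested.

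By call, unswitched cells were 41 of 58 (70.7%) and 91 of 165 (55.2%), a difference of 15.5 points (0.845 to 28.2). With at least 10 UMIs it was 17.7 points (2.42 to 30.2). IgG1 was called in 10 and 31 cells, IgG2b in 5 and 28 and IgG2c in 2 and 12. With at least 10 UMIs IgG1 and IgG2b were called in 5 cells each of the library labelled treated, which put IgG1 at 9.80% of called cells in place of 17.2%. IgA was called in 0 and 1 cells, where 0 of 58 allows up to 5.17%. Only 47.1% of the control's cells could be called, against 86.6% in the library labelled treated. Free heavy chain RNA was higher in the control, at 653 CPM against 282, and its part in these calls and shares was not tested.

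Several genes of switching and its signals were past 1.5-fold in the germinal centre class, where the background was broad. Over all 6502 measured genes of this class 9.41% were higher in the library labelled treated and 7.18% were lower. Of 20 measured genes of switching and hypermutation 1 was higher and 5 lower, among them Polh, the polymerase of hypermutation (84.4 and 164 CPM, -0.96), and Ung, a uracil glycosylase of the same pathway (-0.76). Batf, which switching needs, was the one higher (0.78). Of 14 measured cytokine and sensor genes 5 were higher and 1 lower, with Ifngr2 at 1.16, Smad3 at 1.11 and Myd88 at -0.96. In the 67 cells of the library labelled treated the neutrophil markers summed to 1754 CPM, against 353 in the control, and the cycling markers to 2784 against 3556. Their part was not tested.

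Cells of other classes were not named as B, germinal centre or plasma cells, and the heavy chain UMIs in their droplets were read as the background of the experiment. They were fewer in the library labelled treated, at 531 CPM over 10462 cells against 1489 over 8424, a log2 ratio of -1.49 (-1.51 to -1.47). Of 6 measured genes 5 were lower, where 3.81% of 6459 genes were, and 0 higher, where 2.77% were. Ighg3 (-4.50), Ighg2b (-3.23) and Ighg2c (-2.64) lay furthest down, then Ighg1 (-1.21) and Ighm (-0.87), while Igha stood at 0.32. Ighm was not even between classes. In the library labelled treated it stood at 529 CPM in plasmacytoid dendritic-like cells and at 146 in NK-like cells, where Ighg2c stood at 32.2 and 29.6. Whether some of these cells hold Ighm RNA of their own was not tested.

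A few droplets carried about as much as all the rest. The 83 and 81 barcodes with at least 20 heavy chain UMIs held 47.5% and 57.3% of the heavy chain UMIs of these classes. They stood in particular clusters: in the control, 20 of 117 fibroblast-like cells held 97.4% of that class's heavy chain UMIs and 3 of 50 mast cell-like cells held 97.3%. In the library labelled treated, 59 of 274 cells of the unnamed cluster 9, led by Prg4 and Alox15, held 88.5%.

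The remaining cells, with under 20 heavy chain UMIs, gave 282 and 653 CPM, a log2 ratio of -1.21. Ighg3 (-3.11), Ighg2b (-2.75), Ighg2c (-2.29) and Ighg1 (-1.84) were again lower by far, while Ighm (-0.35) and Igha (-0.40) were near the control. In this set, chosen after the data were seen, 3 of these genes counted as measured and lower, since Ighg3 fell under the 20 CPM minimum. The share of all measured genes that were lower in this set is not given here.

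Apart from Ighd, the genes stood in the same order of share in this free RNA and in the plasma cells of its own library. In the library labelled treated Ighm was 62.8% of the heavy chain UMIs in these cells and 53.9% in plasma cell-like cells. In the control it was 34.6% and 31.4%. Ighg2c was 11.9% and 14.6% in the library labelled treated and 25.2% and 28.2% in the control, and Ighg2b 7.16% and 11.3% against 20.8% and 24.6%. Igha was 9.65% and 13.9% against 5.49% and 5.04%. Ighg1 had a larger share of the free RNA than of plasma cell-like cells, at 6.86% and 4.92% against 10.6% and 7.66%. So had Ighd, at 0.847% and 0.00148% in the library labelled treated and 0.407% and 0.00188% in the control.

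**Figure D5:**
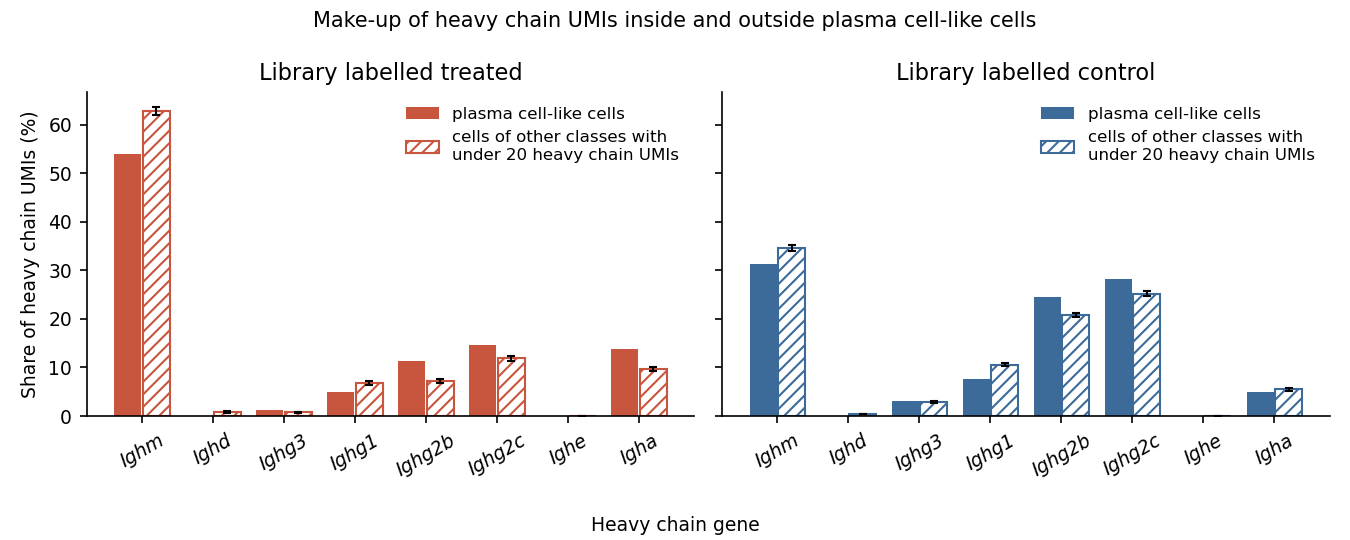
Share of all heavy chain UMIs (vertical axis, percent) by gene, in plasma cell-like cells (filled bars) and in cells of other classes with under 20 heavy chain UMIs (hatched bars, with 95% intervals of counting error), for the library labelled treated (left) and the control (right). Apart from Ighd, the hatched bars stand in the same order of height as the filled ones in both libraries. Ighm leads at 62.8% and 53.9% on the left, and Ighm, Ighg2c and Ighg2b are at 34.6%, 25.2% and 20.8% of the hatched bars on the right.

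Heavy chain UMIs, read here as free RNA, were found in most cells of other classes. In the library labelled treated 66.9% of cells of other classes held a heavy chain UMI, against 93.3% in the control. Thinning each cell to 2000 UMIs left 40.5% (39.4 to 41.5) and 73.8% (72.8 to 74.8). For this step 1832 and 934 cells were too shallow. The ratio was below 0 in 9 of 9 classes with at least 100 cells in each library, from -3.30 to -0.93 with a median of -1.74.

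Across all classes the order of levels was led by plasma cell-like cells for every gene but Ighd. Ighd was highest in B cell-like cells (205 and 229 CPM), then in germinal centre B-like cells (40.6 and 15.8 CPM), and in the other classes it was at most 8.88 CPM in the library labelled treated, against 15.4 in the control. For Ighm the second place was held by cluster 9 in the library labelled treated (2616 CPM) and by fibroblast-like cells in the control (5621 CPM), ahead of B cell-like cells. For Ighg2c it was held by fibroblast-like cells (1811 CPM) and by mast cell-like cells (23171 CPM), and for Igha by cluster 9 (1888 CPM) and neutrophil-like cells (231 CPM). These second places rest on the few droplets described above, and spread over samples cannot be given.

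The genes most like each member in pattern were found over 31 sums of cells, each one class in one library, as Pearson correlations of log2(CPM + 1). They are a description: the sums share libraries, depth and free RNA. Nearest to Ighd were Srpk3 (0.89), Fcmr, the receptor of IgM (0.86), and Chst3 (0.85). Nearest to Ighm were Cacna1s (0.88), Gm30211 (0.87) and Mzb1, a chaperone of IgM assembly (0.87). Jchain led for Ighg1 (0.87), Ighg2b (0.85) and Ighg2c (0.92), and Derl1, a protein of the endoplasmic reticulum, for Igha (0.75). Ighg3 was nearest to Oosp1 (0.80) and Ighe to Derl3 (0.81), and for Ighe 1 control cell sets most of that pattern.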

How the data were processed

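The values deposited for the 2 single-cell libraries, 1 labelled treated and 1 labelled control, are raw UMI counts per gene and barcode. Cell Ranger 7.2.0 made them, per the file headers, while the submitters' processing notes name Cell Ranger 3.1.0, Seurat 4.4.0 and the mm10 build. The members and gene lists were chosen with earlier results of these data known.

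Barcodes with at least 500 detected genes and at most 15% mitochondrial UMIs were kept, and Scrublet doublet calls were removed. Counts scaled to 10000 per cell were clustered with scanpy 1.11.5 (2000 variable genes without 427 immunoglobulin and J chain genes, 30 components, 15 neighbours, Leiden resolution 1), and clusters were named from 17 marker lists. Summed UMIs were scaled to CPM within a class. Intervals are exact Poisson, conditional binomial or Clopper-Pearson, and Newcombe for differences of shares, all at 95%. They cover counting error only, and no p-value was computed. The ratio step was tested on simulated data. All 8 genes are named; from each list up to 4 measured genes with the largest ratio in plasma cell-like cells (others are named where their level is the point, chosen after their values were seen); per isotype up to 5 genes higher and 5 lower by at least 2-fold in both libraries with 50 UMIs in one arm, ranked by the smaller ratio; and for pattern the 3 nearest genes. Some genes of these lists are not reported here. Gene models came from the GRCm38 annotation. Alternatives covered doublet calls, filters, clustering, scale, fold and call rules.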

Additional observations from a re-analysis of the deposited data

How the results depend on the processing

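The isotype shares of plasma cell-like cells stayed within their counting intervals under every alternative run: the IgM difference ran from 19.7 to 22.7 points, IgA from 6.90 to 8.34, Ighg2c from -16.1 to -14.6 and Ighg2b from -10.8 to -9.09. With a fold of 2, plasma cell-like cells had 1 gene higher in place of 2 and B cell-like cells 1 lower in place of 2. Equal weights of cycling and non-cycling cells left 1 gene higher in plasma cell-like cells. With doublet calls kept, germinal centre B-like cells had 1 gene higher in place of 3 and 2 lower in place of 0. For the counts of this section the share of all measured genes past the same rule is not given here, so they are not set against a background. The log2 ratio of free heavy chain RNA, -1.49, was -1.39 with doublet calls kept, -1.47 with immunoglobulin genes in the clustering, -1.33 at resolution 2 (where most B cells lost their name and joined the other classes), -1.21 with at least 1000 genes, -1.32 with at most 10% mitochondrial UMIs, -1.23 in cells with no B or plasma marker UMI and -1.74 as the median over classes. In cells of other classes with under 20 heavy chain UMIs, an alternative added after seeing the data, it was -1.21, and -1.24 with at least 1000 genes as well; 3 genes were lower in place of 5 in both.

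Ighm in cells of other classes changed sign with at least 1000 genes, at 0.27 against -0.87. There 73 barcodes with at least 20 heavy chain UMIs held 32730 of the 41585 Ighm UMIs of the library labelled treated, and 92 held 18824 of 27944 in the control. Without them the ratio was -0.37. Of 287 single gene ratios under alternatives, 269 kept their sign and 18 had the other one, and 100 lay outside the counting interval of the reported value. Counting mean UMIs per cell moved the median of all genes to 0.16 in B cell-like and -0.19 in germinal centre B-like cells. No paired analysis was possible because each group is 1 library. With 67 germinal centre B-like cells in the library labelled treated, the interval of the unswitched share there ran from 57.3% to 81.9%.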
